A study of Mus musculus with 14 samples.

Results

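The 9 genes described here take part in the clearance of reactive aldehydes and electrophiles and in metal buffering: Aldh1a1 and Aldh2 (aldehyde dehydrogenases), Gstm1, Gstm2 and Gstm5 (glutathione transferases), Sult1a1 (a sulfotransferase), Mt1 and Mt2 (metallothioneins) and Nupr1 (a small stress-induced nuclear protein). They were chosen by gene symbol, with earlier results of these data known, out of 55450 gene identifiers in the count files. The filter on low counts was passed by 9 of 9. RNA-seq was done on long-term hematopoietic stem cells (LT-HSCs), the rare bone marrow cells that rebuild blood over a lifetime, sorted as cells without lineage markers and CD48 and with Sca-1, c-Kit and CD150. All donors were female C57BL/6 mice older than 24 months, with no genetic change named in the labels.

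The study had 4 groups. Selp high-derived cells (3 libraries) and Selp low-derived cells (3 libraries) were donor LT-HSCs recovered 16 weeks after 1000 Selp high or Selp low cells had been given to lethally irradiated recipients 10 to 16 weeks old. Selp high cells (4 libraries) and Selp low cells (4 libraries) came straight from 4 old mice and were separated by surface P-selectin, an adhesion receptor encoded by Selp. The sort after transplantation used donor CD45.2 and did not select on P-selectin, so Selp high-derived and Selp low-derived name the transplanted input. Transplantation, host age, irradiation and the sort gate all differ between stages and cannot be told apart. The number of recipients behind a post-transplant library remains not given in the sources used here, and p-values cover the spread between libraries only.

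Aldehyde dehydrogenases oxidise aldehydes to acids. In mice, Aldh2 works with the Fanconi DNA repair pathway to protect blood stem cells from aldehyde damage, and Aldh1a1 makes retinoic acid from retinaldehyde. Glutathione transferases join glutathione to electrophiles, and sulfotransferases add sulfate to phenols and steroids. Metallothioneins are small cysteine-rich proteins that bind zinc and copper; their genes are switched on by metals through the factor MTF-1 and by glucocorticoids. NUPR1 is induced by cell stress and by the ATF4 branch of the stress response.

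The members lie at 5 places in the genome (GRCm38, GENCODE annotation). Gstm5 (chr3:107895821-107898686), Gstm2 (chr3:107981702-107986453) and Gstm1 (chr3:108012255-108017973) sit in 1 cluster on chromosome 3. Sult1a1 (chr7:126672865-126676432) and Nupr1 (chr7:126623249-126630861) are 42.0 kb apart on chromosome 7, and Mt2 (chr8:94172664-94173568) and Mt1 (chr8:94179082-94180327) are 5.51 kb apart on chromosome 8. Aldh1a1 is at chr19:20492715-20643465 and Aldh2 at chr5:121566027-121593824.

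Promoter sequences are shown for Mt1, Mt2 and Nupr1, 3 of the 4 members with the largest falls in RNA, because their known regulators bind short motifs. RefSeq promoter windows on GRCm38.p6, from 250 bases before to 50 after the start site, matched 8 of the 9 members; Aldh2 had none. The 250 bases before the start are printed 5′ to 3′ on the gene's strand. Capitals mark the core of the metal response element (TGCACNC or TGCGCNC, on either strand) in Mt1 (chr8:94178839-94179088, plus strand) and Mt2 (chr8:94172368-94172617, plus strand), and the core of the C/EBP-ATF composite element (TGATGNAA, on either strand) in Nupr1 (chr7:126625471-126625720, minus strand).
Mt1: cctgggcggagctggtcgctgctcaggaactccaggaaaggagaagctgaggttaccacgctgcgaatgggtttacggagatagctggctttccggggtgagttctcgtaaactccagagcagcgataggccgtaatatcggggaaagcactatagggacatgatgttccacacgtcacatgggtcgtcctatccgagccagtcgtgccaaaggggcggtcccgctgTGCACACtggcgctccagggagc
Mt2: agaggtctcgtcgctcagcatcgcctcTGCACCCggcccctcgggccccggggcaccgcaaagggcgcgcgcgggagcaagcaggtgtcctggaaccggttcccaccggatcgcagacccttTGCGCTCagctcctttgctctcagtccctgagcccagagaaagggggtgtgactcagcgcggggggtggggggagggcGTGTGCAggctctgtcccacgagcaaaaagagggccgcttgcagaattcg
Nupr1: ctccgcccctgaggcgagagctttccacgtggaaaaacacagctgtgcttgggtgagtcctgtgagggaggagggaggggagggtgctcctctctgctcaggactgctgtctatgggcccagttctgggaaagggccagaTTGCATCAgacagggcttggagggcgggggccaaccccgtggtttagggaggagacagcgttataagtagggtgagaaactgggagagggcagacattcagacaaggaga

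The 300-base window of Mt1 held 3 metal response element cores, the printed one at -23 from the RefSeq start and others at 2 and 20 past it. Mt2 held 4, at -223, -128 and -50 in the printed stretch and at 4. Of 32851 promoter windows in the RefSeq table, 25.7% held at least 1 such core, 1.97% held 3 or more and 0.517% held 4 or more. Gstm5 held 1 at -56. The 2 windows of Gstm1 overlap and held the same 1, at -74 from the first start and -229 from the second. The antioxidant response element core (TGACNNNGC, either strand), found in 12.4% of windows, was in Mt2 at -79 and in Gstm5 at -42, and overlapped no other match. The C/EBP-ATF core, found in 3.97% of windows, was in Nupr1 at -110 and in no window of the other matched members. A match describes the letters and does not show that a factor binds there. Bases outside these windows were not searched, so a gene with a further start site, Mt1 included, can hold more cores than counted.

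Libraries held 22374794 to 38216775 reads assigned to genes. The defining markers of LT-HSCs were present in every group: 12 listed markers, among them Kit and Slamf1, summed to 3646 to 4923 CPM (reads scaled to a common library size) after and 5210 to 6218 CPM before transplantation. Neutrophil markers were present in every library and uneven: Selp low-derived replicate 2 (12750 CPM summed over 12 markers), Selp high replicate 4 (20960 CPM) and Selp low replicate 4 (15490 CPM) stood apart from the others, which had 294.7 to 6385 CPM.

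After transplantation, metallothionein, Sult1a1 and Nupr1 RNA was 2.73- to 4.77-fold lower than before, while Aldh2 had a log2 change of 0.05 ± 0.09. By edgeR's quasi-likelihood test, 6 of 9 members were called lower after than before transplantation, taking both inputs together, and 0 were called higher. Over all 16878 genes tested, 14.6% were called lower and 12.9% higher in the same comparison. Since the members were chosen with earlier results of these data known, the shares are a description and test nothing. A gene is called here when its Benjamini-Hochberg adjusted p over all tested genes is under 0.05. The fit takes the 14 libraries as separate units. The 8 pre-transplant libraries are read as pairs from 4 mice, so the SE and adjusted p over both inputs rest on fewer mice than libraries. The median log2 fold change of the 9 members was -0.61, and that of all genes -0.01. In these bulk samples, fewer cells of a type and less RNA per cell cannot be told apart.

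**Figure D1:**
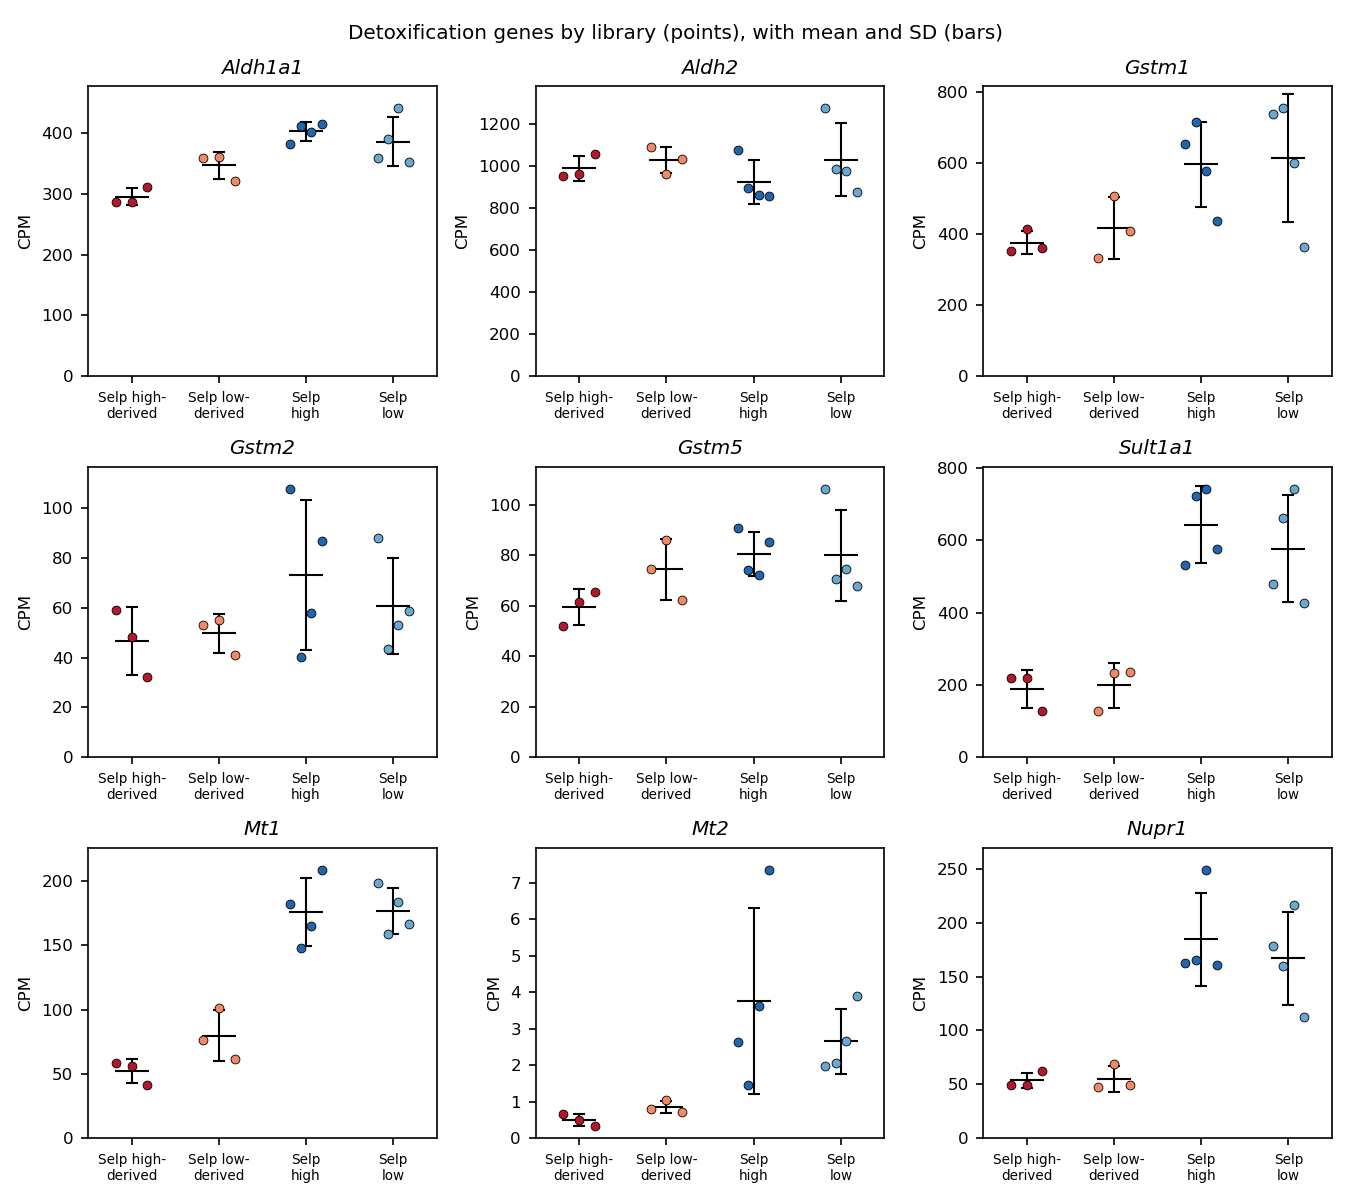
Level of each of the 9 members in CPM (vertical axes, from 0) in Selp high-derived, Selp low-derived, Selp high and Selp low libraries; points are libraries, long bars means and whiskers SD. Sult1a1, Mt1, Mt2 and Nupr1 lie lower in the 6 post-transplant libraries than in any of the 8 pre-transplant libraries, and Aldh2 overlaps across all 4 groups.

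Aldh1a1 (ENSMUSG00000053279.8) was measured at 287, 287 and 311 CPM in Selp high-derived cells and 359, 359.9 and 321 CPM in Selp low-derived cells, against 381, 412, 402 and 416 CPM in Selp high cells and 358, 391, 442 and 353 CPM in Selp low cells. The Selp high-derived libraries were the lowest and lay below every library of the other 3 groups. Aldh1a1 fell by 0.30 ± 0.07 on the log2 scale (SE) over both inputs (edgeR adjusted p = 0.00514). With the Selp high input it fell by 0.45 ± 0.10 (adjusted p = 0.00699). With the Selp low input the change was -0.15 ± 0.10 (adjusted p = 0.334) and the groups overlapped.

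Aldh2 (ENSMUSG00000029455.14), the mitochondrial acetaldehyde-clearing enzyme, was at 949, 958 and 1057 CPM in Selp high-derived cells and 1088, 962 and 1030 CPM in Selp low-derived cells, against 1075, 894, 862 and 858 CPM in Selp high cells and 1276, 985, 974 and 874 CPM in Selp low cells. The groups of both stages overlapped. Its change was 0.05 ± 0.09 on the log2 scale (edgeR adjusted p = 0.725), with an interval of 2 SE either side from -0.13 to 0.23. This is the only member with a positive value over both inputs.

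The mu-class glutathione transferases differed among themselves. Gstm1 (ENSMUSG00000058135.12) was at 353, 414 and 361 CPM in Selp high-derived cells and 334, 507 and 410.2 CPM in Selp low-derived cells, against 654, 715, 578 and 438 CPM in Selp high cells and 738, 756, 599.8 and 363 CPM in Selp low cells. The stages overlapped through Selp low replicate 4 and Selp high replicate 4, the lowest libraries of their groups. Gstm1 fell by 0.61 ± 0.16 over both inputs (edgeR adjusted p = 0.013), with adjusted p of 0.0702 for the Selp high and 0.138 for the Selp low input.

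Without the 3 libraries high in neutrophil transcripts, Gstm1 fell by 0.85 ± 0.10 over both inputs (edgeR adjusted p = 6.55e-05). It was then called for the Selp high input (-0.79 ± 0.13, adjusted p = 0.00139) and for the Selp low input (-0.91 ± 0.14, adjusted p = 0.00188) as well. Leaving out Selp low replicate 4 alone was enough for a call of Gstm1 for the Selp high (adjusted p = 0.019) and the Selp low input (adjusted p = 0.0161), and leaving out Selp high replicate 4 alone for the Selp high input (adjusted p = 0.0366). With every library kept, DESeq2 also called Gstm1 for the Selp high input (-0.68, DESeq2 adjusted p = 0.0273) but not for the Selp low input (DESeq2 adjusted p = 0.0887).

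Gstm2 (ENSMUSG00000040562.12) averaged 46.6 ± 13.6 CPM for Selp high-derived cells (SD, n = 3) and 49.8 ± 7.73 CPM for Selp low-derived cells (SD, n = 3), against 73.2 ± 30.1 CPM for Selp high cells (SD, n = 4) and 60.8 ± 19.3 CPM for Selp low cells (SD, n = 4). Selp high replicates ran from 40.2 to 107.9 CPM, the widest relative spread among members other than Mt2. Its change of -0.47 ± 0.22 over both inputs was not called (edgeR adjusted p = 0.134). Gstm5 (ENSMUSG00000004032.10), which differs from its neighbours in being transcribed from the plus strand, averaged 59.7 ± 7.09 CPM for Selp high-derived cells and 74.4 ± 11.9 CPM for Selp low-derived cells (SD, n = 3 each), against 80.6 ± 8.83 CPM for Selp high cells and 80.0 ± 17.9 CPM for Selp low cells (SD, n = 4 each). Its change of -0.27 ± 0.12 was not called either (adjusted p = 0.107). Leaving out Selp high replicate 2 gave a call of Gstm2 over both inputs (adjusted p = 0.0447), and leaving out Selp low replicate 1 a call of Gstm5 for the Selp high input (adjusted p = 0.0421).

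The counts of members carry some uncertainty where sequence is shared with other genes. Reads that mapped to several places stayed out of the counts. Of the 50-base windows of Gstm1 transcripts, 18.9% also occur in transcripts of other genes, 14.1% in the pseudogene Gstm2-ps1. The share was 5.65% for Gstm2, 9.44% for Gstm5 (with its antisense gene 4933431E20Rik), 7.36% for Sult1a1 and 3.06% for Aldh1a1 (with Aldh1a7). It was 1.56% for Aldh2, 0.686% for Nupr1 and 0 for Mt1. Mt2 had the largest share of the members, 45.8%, all of it with its antisense gene Gm45774. For Mt2 and Gstm5 the other gene lies on the opposite strand of the same place, so these shares are not with a paralog.

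Sult1a1 (ENSMUSG00000030711.16), which sulfates phenols, was at 221, 219 and 128 CPM in Selp high-derived cells and 127, 234 and 237 CPM in Selp low-derived cells, against 532, 724, 744 and 577 CPM in Selp high cells and 479, 662, 742 and 427 CPM in Selp low cells. No post-transplant library reached the lowest pre-transplant one. Sult1a1 fell by 1.65 ± 0.19 on the log2 scale over both inputs, 3.14-fold lower (edgeR adjusted p = 3.26e-05). The change was -1.77 ± 0.27 (adjusted p = 0.000667) for the Selp high and -1.53 ± 0.27 (adjusted p = 0.003) for the Selp low input.

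Mt1 (ENSMUSG00000031765.8) was at 58.8, 56.3 and 41.7 CPM in Selp high-derived cells and 76.6, 100.8 and 61.9 CPM in Selp low-derived cells, against 182, 147, 165 and 209 CPM in Selp high cells and 199, 158, 183 and 167 CPM in Selp low cells. All 6 post-transplant libraries lay below all 8 pre-transplant libraries, and the Selp high-derived libraries lay below the Selp low-derived ones. Mt1 fell by 1.45 ± 0.13 over both inputs, 2.73-fold lower (edgeR adjusted p = 4.58e-06). By input, it fell by 1.75 ± 0.18 for Selp high (adjusted p = 7.45e-05) and by 1.15 ± 0.18 for Selp low (adjusted p = 0.00154).

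Mt2 (ENSMUSG00000031762.7) needs a word on counting. The antisense gene Gm45774 covers 432 of the 588 exon bases of Mt2, and reads that overlap both genes are assigned to neither when strand is ignored. The counts used here then hold 10 to 186 Mt2 reads a library, which is 3.96 to 12.1% of the 131 to 1537 reads obtained when the counts by strand are added up. The added counts were taken as an alternative after seeing the data; they count a read in the overlap for both genes, so Mt2 and Gm45774 cannot be told apart there. Gstm5 kept 75.2 to 81.4% of its reads (antisense gene 4933431E20Rik), Sult1a1 93.5 to 97.0% (its neighbour Sgf29), and the other 6 members 99.9% or more. Across 12554 genes with a mean of at least 100 added reads, 7.14% kept under 10%.

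In the counts without regard to strand, Mt2 was at 0.676, 0.504 and 0.337 CPM in Selp high-derived cells and 0.806, 1.05 and 0.730 CPM in Selp low-derived cells, against 2.64, 1.46, 3.61 and 7.37 CPM in Selp high cells and 1.99, 2.06, 2.66 and 3.91 CPM in Selp low cells. With the strand counts added it was at 9.69, 5.08 and 4.93 CPM in Selp high-derived cells and 8.50, 12.7 and 8.19 CPM in Selp low-derived cells, against 41.1, 34.1, 42.0 and 57.0 CPM in Selp high cells and 36.3, 30.1, 40.0 and 43.3 CPM in Selp low cells. Under either counting no post-transplant library overlapped a pre-transplant one.

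Mt2 changed by -2.25 ± 0.36 on the log2 scale over both inputs without regard to strand (edgeR adjusted p = 0.000417) and by -2.33 ± 0.19 with strand counts added (adjusted p = 3.13e-06). For the Selp high input the values were -2.89 ± 0.53 (adjusted p = 0.00225) and -2.73 ± 0.28 (adjusted p = 6.81e-05). For the Selp low input they were -1.62 ± 0.50 (adjusted p = 0.0489) and -1.93 ± 0.27 (adjusted p = 0.000815). The call for the Selp low input without regard to strand is thus close to the threshold, and 15 of 22 alternative settings lost it (adjusted p from 0.000815 to 0.144 over the 22), among them those without any 1 library other than Selp high replicates 2 and 4.

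**Figure D2:**
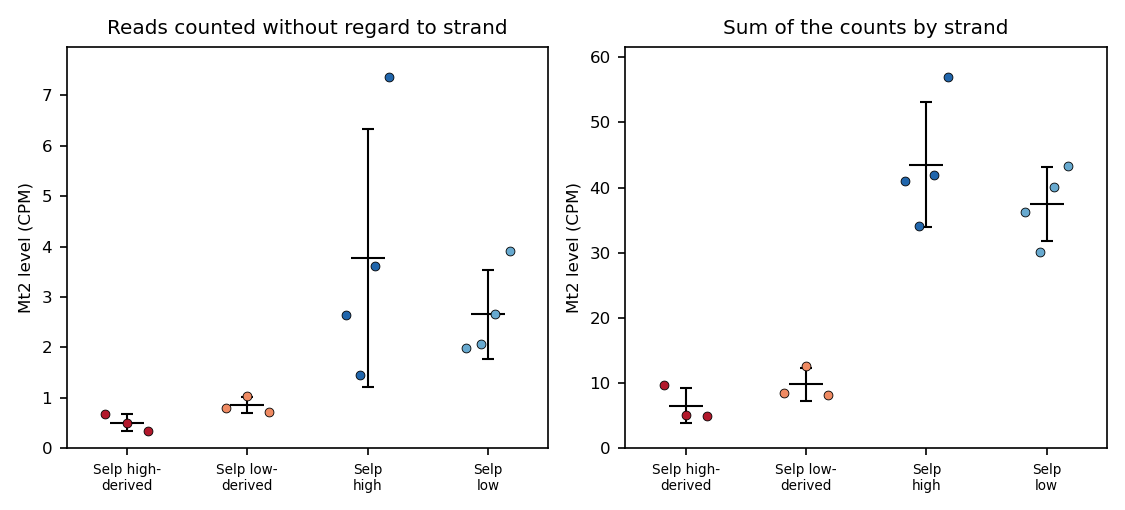
Mt2 level in CPM in each library (points), with mean and SD, in Selp high-derived, Selp low-derived, Selp high and Selp low cells, from counts made without regard to strand (left) and from the sum of the counts by strand (right). The scales differ; on each, the 6 post-transplant libraries lie below the 8 pre-transplant libraries, at 4.93 to 12.7 against 30.1 to 57.0 CPM on the right.

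Nupr1 (ENSMUSG00000030717.9) was at 49.8, 49.7 and 62.0 CPM in Selp high-derived cells and 47.7, 68.9 and 49.0 CPM in Selp low-derived cells, against 163, 166, 249 and 160.4 CPM in Selp high cells and 178, 159.6, 217 and 113 CPM in Selp low cells. The highest post-transplant library lay below the lowest pre-transplant library. Nupr1 fell by 1.69 ± 0.16 over both inputs, 3.22-fold lower (edgeR adjusted p = 8.56e-06), by 1.78 ± 0.23 for the Selp high input (adjusted p = 0.000235) and by 1.59 ± 0.23 for the Selp low input (adjusted p = 0.000999).

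Sult1a1, Mt1, Mt2 and Nupr1 were the 4 of 9 members without overlap between stages; 5.47% of all tested genes were lower without overlap. For the Selp high input alone, 5 of 9 members were called lower, against 7.62% of all genes, and 7 of 9 did not overlap, against 14.7%. For the Selp low input 4 of 9 were called lower, against 6.46%, and 4 of 9 did not overlap, against 11.9%. These comparisons share libraries with the one over both inputs, and the members were chosen with earlier results of these data known. Without the 3 libraries high in neutrophil transcripts, 6 of 9 members were called lower over both inputs, against 16.2% of the genes tested in that setting. For the Selp high input 6 were then called lower, against 9.05%, and for the Selp low input 5, against 7.79%; over all genes, too, more were called lower than with every library.

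**Figure D3:**
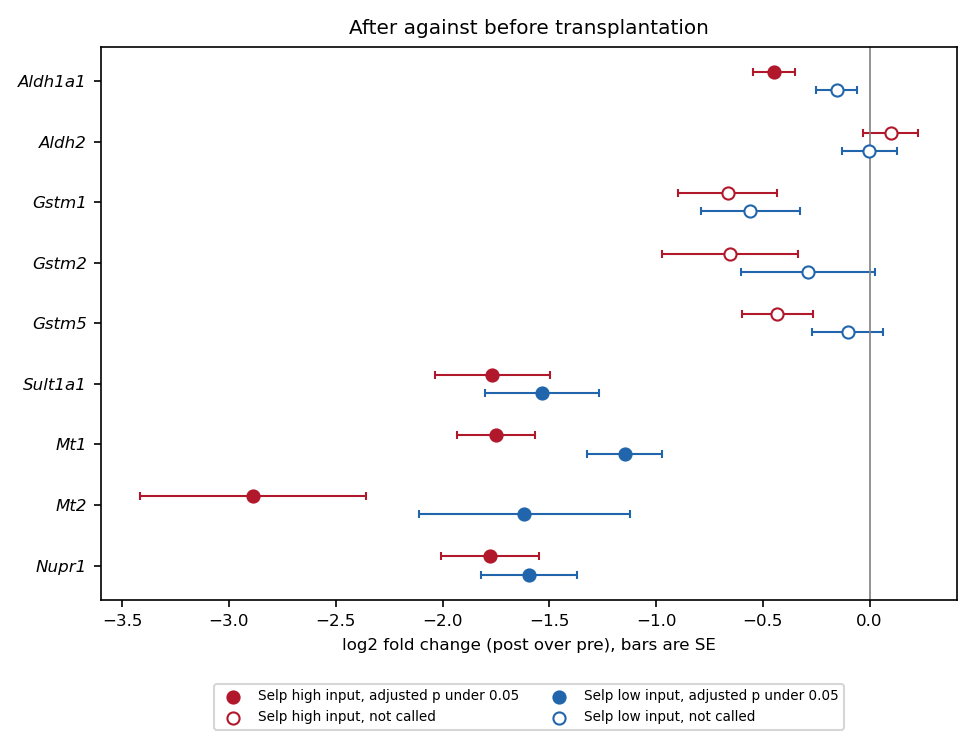
Log2 fold change of each member, post-transplant over pre-transplant, with SE bars, for the Selp high input (upper point of each row) and the Selp low input (lower point); filled points have an adjusted p under 0.05. Sult1a1, Mt1, Mt2 and Nupr1 are called for both inputs, between -2.89 and -1.15, and Aldh2 lies at 0.10 and -0.00.

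The order of the members by level per length also differed between stages. In RPKM, which scales reads by library size and exon length, Sult1a1 averaged 126 ± 35 in Selp high-derived and 132 ± 41.5 in Selp low-derived cells (SD, n = 3 each), against 427 ± 70.1 in Selp high and 383 ± 98.8 in Selp low cells (SD, n = 4 each), where it was level with Gstm1. Gstm1 averaged 255 ± 22.6 and 283 ± 59.1 RPKM in the same 2 groups after transplantation, against 405 ± 81.2 and 417 ± 123 RPKM before. Aldh2 averaged 193 ± 11.6 and 200.3 ± 12.3 RPKM after, against 179.9 ± 20.1 and 200.4 ± 33.8 RPKM before, and so stood above Sult1a1 in both post-transplant groups and below it in both pre-transplant groups. The levels of Sult1a1 and Gstm1 before transplantation do not differ beyond their spread.

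Mt1 averaged 42.0 ± 7.43 RPKM in Selp high-derived and 64.0 ± 15.7 RPKM in Selp low-derived cells (SD, n = 3 each), against 141 ± 21.0 RPKM in Selp high and 142 ± 14.4 RPKM in Selp low cells (SD, n = 4 each). The exons counted for its length include retained introns, which lowers its RPKM. It stood above Aldh1a1 before transplantation (81.5 ± 3.13 and 78.2 ± 8.28 RPKM) and below or level with it after (59.8 ± 2.80 and 70.2 ± 4.51 RPKM). Mt2 with the strand counts added reached 11.2 and 16.7 RPKM in the post-transplant groups, against 74.0 and 63.7 RPKM in the pre-transplant groups, below Mt1 in each group.

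Selp high against Selp low cells asks whether old LT-HSCs with more surface P-selectin carry different levels of these enzymes. Before transplantation they were not distinguishable by this test: 0 of 9 members were called by edgeR, 6 had positive and 3 negative values, and 0 of 9 pairs of groups were free of overlap, against 0 called and 3.08% without overlap among all genes. Over all genes 863 had an unadjusted p under 0.05, and DESeq2 called 11 genes, none of them a member. Aldh2 was lower in Selp high cells in each of the 4 mice, by -0.25, -0.14, -0.18 and -0.03 log2 CPM, with a change of -0.16 ± 0.12 (edgeR adjusted p = 0.959). Sult1a1 was higher in 4 of 4 mice, with 0.16 ± 0.24 (adjusted p = 0.978). These SEs, and the intervals that follow, come from the fit without a mouse term and so leave the pairing within mice unused. With a replicate block, edgeR called 0 genes in this comparison. Intervals of 2 SE either side ran from -0.33 to 0.31 for Mt1, from -0.25 to 0.54 for Nupr1 and from -0.12 to 0.24 for Aldh1a1. They were wider for Gstm1 (-0.467 to 0.381), Sult1a1 (-0.315 to 0.629), Gstm2 (-0.31 to 0.847) and Mt2 (-0.35 to 1.36). Mt2 had the largest value, 0.51 ± 0.43, or 0.22 ± 0.23 with strand counts added. In Selp high cells, 12 of 12 cell cycle genes (median -0.55) and 8 of 8 B cell markers (median -0.33) had lower values. Monocyte and macrophage markers were lower in 10 of 12 (median -0.63), and neutrophil markers higher in 11 of 12 (median 0.33). The other marker lists were more evenly split. Of all these genes 0 were called, and their part in the members' values was not tested.

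After transplantation, 9 of 9 members had lower values in Selp high-derived than in Selp low-derived cells, and 0 were called (edgeR; over all genes 0 called and 765 with an unadjusted p under 0.05, and 23 called by DESeq2, none of them a member). Their median was -0.15, against 0.01 over all genes. Aldh1a1 (-0.23 ± 0.10), Mt1 (-0.61 ± 0.19) and Mt2 (-0.77 ± 0.53, or -0.58 ± 0.28 with strand counts added) were lower without overlap of the groups, 3 of 9 members against 5.55% of all genes. With strand counts added the Mt2 groups overlapped, at 4.93 to 9.69 CPM in Selp high-derived and 8.19 to 12.7 CPM in Selp low-derived libraries. Mt1 had the smallest p of the 9, with an unadjusted edgeR p of 0.00516 and an adjusted p of 0.979. Neutrophil markers moved with this comparison: in Selp high-derived libraries 12 of 12 had lower values (median -1.63, 0 called), with 372.7 to 2183 CPM summed in Selp high-derived and 1534 to 12750 CPM in Selp low-derived libraries. Markers of several other cell types had mostly lower values as well, 0 of them called. They were 9 of 10 for mast cells, basophils and eosinophils (median -1.67), 8 of 8 for B cells (median -1.02) and 8 of 8 for T and NK cells (median -0.52). Erythroid cells had 9 of 10 (median -0.42) and monocytes and macrophages 9 of 12 (median -0.19). Values were split 4 and 4 for megakaryocytes and platelets (median 0.07) and 5 and 5 for stroma and endothelium (median -0.17). LT-HSC markers were split 6 and 6 (median -0.02), and 9 of 12 cell cycle genes had higher values (median 0.07), with 0 called. The part of these markers in the members' lower values was not tested.

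Without the 3 libraries high in neutrophil transcripts, which include 1 of the 3 Selp low-derived libraries, 6 of 9 members had lower values, and the Selp high-derived over Selp low-derived value of Mt1 was -0.41 ± 0.17 (edgeR unadjusted p = 0.032, adjusted p = 1).

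**Figure D4:**
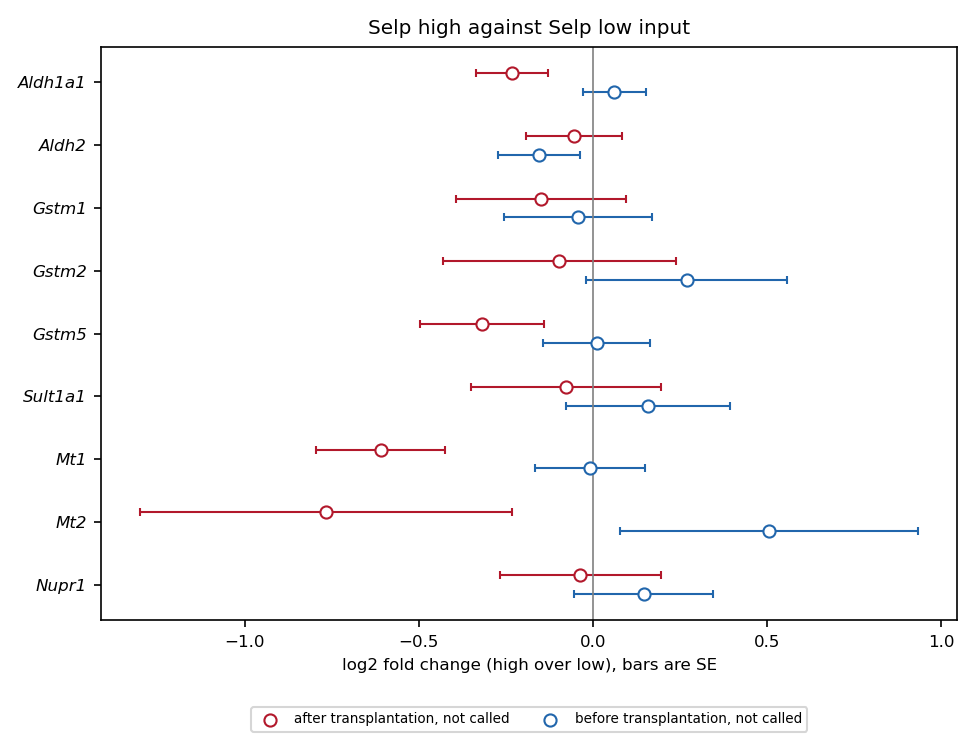
Log2 fold change of each member, Selp high over Selp low input, with SE bars, after transplantation (upper point of each row) and before it (lower point); open points are not called. The 9 values after transplantation lie between -0.77 and -0.04, and those before between -0.16 and 0.51.

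The change of the high against low difference across transplantation was tested as an interaction. None of the 9 members was called, as no gene was over the whole table (edgeR, 874 genes with an unadjusted p under 0.05; DESeq2 called 12, none a member). Mt1 had a value of -0.60 ± 0.24 (unadjusted p = 0.0264, adjusted p = 0.879), Aldh1a1 -0.29 ± 0.14 (unadjusted p = 0.0501, adjusted p = 0.879) and Mt2 -1.27 ± 0.68 (adjusted p = 0.879). Of the 9 members 8 had negative values, with Aldh2 at 0.10 ± 0.18. With strand counts added, Mt2 was at -0.79 ± 0.36 (edgeR unadjusted p = 0.0436, adjusted p = 0.853). Without the 3 libraries high in neutrophil transcripts, Mt1 was at -0.28 ± 0.22 (unadjusted p = 0.238), Aldh1a1 at -0.21 ± 0.15 (unadjusted p = 0.179) and Mt2 at -0.80 ± 0.61 (unadjusted p = 0.214), each with an adjusted p of 0.994, and 6 of 9 members had negative values. Neutrophil markers moved with the interaction in the fit with every library: 12 of 12 had negative values (median -1.91). Cell cycle genes had 12 of 12 positive (median 0.62). Negative values were 7 of 8 for B cells (median -0.65) and 6 of 8 for T and NK cells (median -1.29). They were 7 of 10 for erythroid cells (median -0.28) and 7 of 10 for mast cells, basophils and eosinophils (median -1.35). The other lists were more evenly split. Of all these genes 0 were called, and their part in the interaction was not tested.

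Genes of the same pathways were read from 6 further lists, over both inputs and by edgeR. Over all genes tested, 14.6% were called lower and 12.9% higher, and the counts of each list stand beside these shares. The counts are a description, and no list was tested as a set. Among 25 tested other aldehyde and alcohol enzymes, 5 were called lower and 3 higher (median -0.02 against -0.01 for all genes; 0.04, with 5 lower and 5 higher, when only library sizes were used for scaling). Rdh10, a retinol dehydrogenase, fell by 1.40 ± 0.23 (adjusted p = 0.000563), Aldh3a1 by 1.56 ± 0.28 (adjusted p = 0.00102), Aldh6a1 by 0.34 ± 0.07 (adjusted p = 0.00328), and Dhrs3 by 0.47 ± 0.14; Aldh1a2, also called, was barely detected. Aldh1b1, a mitochondrial enzyme related to Aldh2, rose by 0.46 ± 0.11 (adjusted p = 0.00725), as did Aldh16a1 (0.35 ± 0.11) and the scarce Aldh1a7 (2.59 ± 0.81). The abundant aldehyde reductase gene Akr1a1 was measured at 0.06 ± 0.11 and Aldh18a1, of proline synthesis, at 0.16 ± 0.07, neither called. Dhrs3, Aldh1a2, Aldh16a1 and Aldh1a7 were named after their values were seen.

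Of 23 tested other glutathione and sulfotransferases and related enzymes, 6 were called lower and 1 higher (median -0.27). Hpgds, the hematopoietic prostaglandin D synthase, was at 4.75 ± 0.18 CPM for Selp high-derived cells and 3.84 ± 1.07 CPM for Selp low-derived cells (SD, n = 3 each), against 18.1 ± 2.68 CPM for Selp high cells and 16.3 ± 4.02 CPM for Selp low cells (SD, n = 4 each), a change of -2.005 ± 0.17 in log2 (edgeR adjusted p = 3.68e-06). Ptges, a prostaglandin E synthase, fell by 2.13 ± 0.21 (adjusted p = 1.2e-05), Gstt1 by 0.90 ± 0.13 (adjusted p = 0.000238) and Sult4a1 by 1.38 ± 0.27 (adjusted p = 0.00179). Gsto1 and Gstp1, the most abundant of the list per length, were at -0.12 ± 0.08 and -0.26 ± 0.12, not called. Gstcd, named after its value was seen, rose by 0.45 ± 0.15 (adjusted p = 0.0417). Without the 3 libraries high in neutrophil transcripts 10 were called lower and 0 higher.

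Among 24 genes of glutathione synthesis and recycling, 6 were called lower and 2 higher (median -0.12). Gpx3, the secreted glutathione peroxidase, was at 11.2 ± 2.77 CPM for Selp high-derived cells and 17.1 ± 7.17 CPM for Selp low-derived cells (SD, n = 3 each), against 130.1 ± 21.2 CPM for Selp high cells and 112 ± 28.4 CPM for Selp low cells (SD, n = 4 each), a change of -3.12 ± 0.22 (edgeR adjusted p = 9.17e-07). Ggt1, which breaks down glutathione outside cells, fell by 1.98 ± 0.23 (adjusted p = 3.1e-05), Gpx8 fell by 1.84 ± 0.27 (adjusted p = 0.000187) and Gsr, glutathione reductase, by 0.61 ± 0.10 (adjusted p = 0.000358). The cytosolic peroxidase gene Gpx1, the most abundant of the list per length, was at 0.29 ± 0.11 (adjusted p = 0.0562) and Gpx4 at -0.16 ± 0.12 (adjusted p = 0.37). The 2 that rose were the export pumps Abcc1 (0.38 ± 0.10) and Abcc4 (0.32 ± 0.11), named after their values were seen.

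Of 24 tested metal-handling genes beyond Mt1 and Mt2, 6 were called lower and 1 higher (median -0.10). Mt3, another metallothionein of the chromosome 8 cluster, was scarce at 0.183 ± 0.026 CPM for Selp high-derived cells and 0.164 ± 0.049 CPM for Selp low-derived cells (SD, n = 3 each), against 1.34 ± 0.87 CPM for Selp high cells and 0.761 ± 0.42 CPM for Selp low cells (SD, n = 4 each), a change of -2.50 ± 0.45 (edgeR adjusted p = 0.000935). The zinc exporter gene Slc30a4 fell by 0.95 ± 0.13 (adjusted p = 0.000128), the zinc transporter gene Slc39a13 by 0.68 ± 0.12 (adjusted p = 0.00101) and the copper transporter gene Slc31a2 by 0.85 ± 0.12 (adjusted p = 0.000158). The copper chaperone genes Atox1 (-0.04 ± 0.13) and Ccs (-0.00 ± 0.09) were not called. Slc39a6 was called higher (0.41 ± 0.10, named after its value was seen).

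Of 27 genes known as targets of NRF2, the factor that answers electrophile stress, with its own gene Nfe2l2 among them, 10 were called lower and 3 higher (median -0.19). Ephx1, an epoxide hydrolase, fell by 1.61 ± 0.24 (edgeR adjusted p = 0.000228), Srxn1, which repairs peroxiredoxins, by 0.62 ± 0.10 (adjusted p = 0.000359), Sqstm1, an autophagy receptor, by 0.54 ± 0.09 (adjusted p = 0.000546) and Fth1, ferritin heavy chain, by 0.30 ± 0.10 (adjusted p = 0.0345). Txn1 was at 0.37 ± 0.14 (adjusted p = 0.0675). The 3 higher genes, named after their values were seen, were the pentose phosphate enzymes Taldo1 (0.33 ± 0.11) and Tkt (0.42 ± 0.08) and Abcc1. With only library sizes used for scaling, 8 NRF2 targets were called lower and 4 higher. That scaling called 2 other transferases, 3 genes of glutathione synthesis and recycling and 2 metal-handling genes higher, with 6 lower in each of these lists.

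The list around Nupr1 had the lowest median of the 6. It holds 18 tested genes of the ATF4 branch of the stress response, of glucocorticoid induction and of NUPR1's known partners; 11 were called lower and 3 higher (median -0.74). Atf3 was at 0.269 ± 0.36 CPM for Selp high-derived cells and 1.63 ± 2.08 CPM for Selp low-derived cells (SD, n = 3 each), against 165 ± 120 CPM for Selp high cells and 109 ± 48.9 CPM for Selp low cells (SD, n = 4 each), a change of -7.69 ± 0.79 (edgeR adjusted p = 1.34e-05). Cebpb fell by 2.39 ± 0.19 (adjusted p = 2.5e-06), Trib3, an ATF4 target, by 1.11 ± 0.15 (adjusted p = 0.0001) and the glucocorticoid-induced Tsc22d3 by 0.62 ± 0.07 (adjusted p = 4.23e-05). Chek1 (1.88 ± 0.35), Ep300 (0.58 ± 0.16) and Psma4 (0.24 ± 0.08), named after their values were seen, were the 3 called higher. Between Selp high and Selp low cells, or their derived cells, edgeR called 0 genes of each of the 6 lists.

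**Figure D5:**
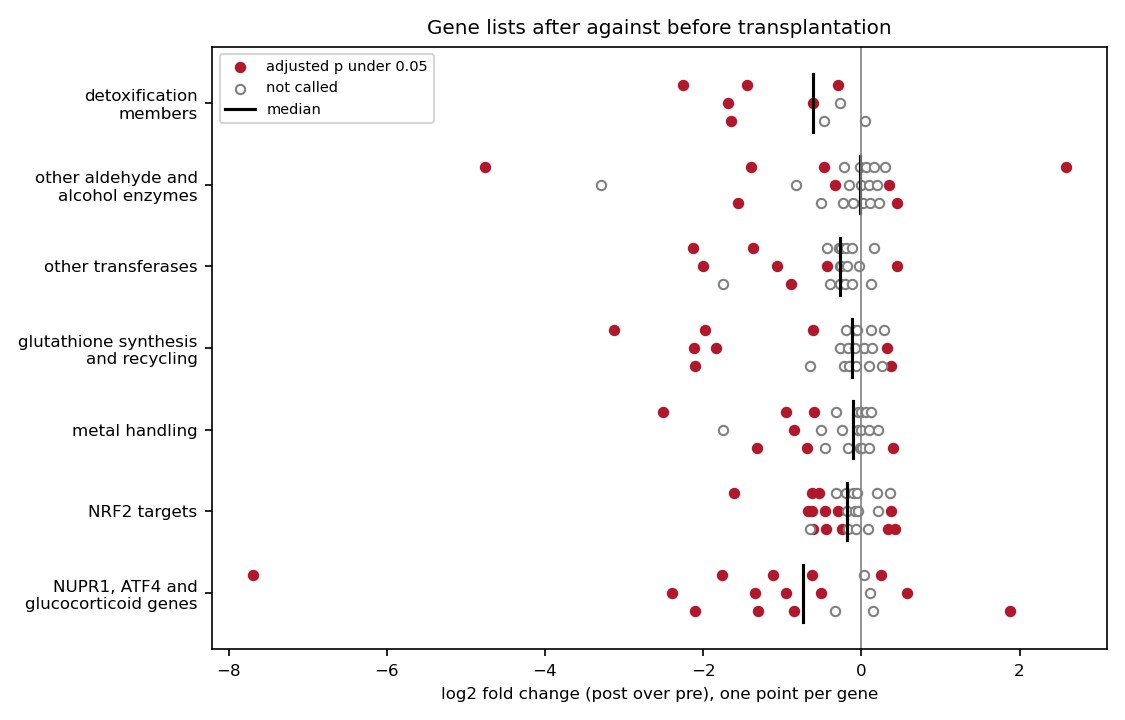
Log2 fold change after against before transplantation, both inputs together, of every tested gene (points) of the 9 members and of 6 further lists; filled points have an adjusted p under 0.05 and the black bars are list medians. The members' median is -0.61, and those of the other lists run from -0.74 for the genes around NUPR1, ATF4 and glucocorticoids to -0.02 for the other aldehyde and alcohol enzymes.

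Other features of the libraries moved with the stage, and their part in the results was not tested. Over all genes tested, 14.6% were called lower and 12.9% higher. Of 12 cell cycle genes 12 were called higher after transplantation (edgeR, median 2.06), summing to 1408 to 2967 CPM after and 433.5 to 1098 CPM before. Of the 12 LT-HSC markers 7 were called lower (median -0.42), and Selp itself fell by 1.15 ± 0.10. With only library sizes used for scaling, 5 LT-HSC markers were called lower. Of the neutrophil markers 0 of 12 were called, with 12 of 12 values lower after transplantation and sums of 372.7 to 12750 CPM after against 294.7 to 20960 CPM before. Among stroma and endothelium markers 4 of 10 tested were called lower and 0 higher, among megakaryocyte and platelet markers 2 of 8 lower and 3 higher, and among T and NK cell markers 1 of 8 each way. Of 12 monocyte and macrophage markers 1, Cd14, was called lower, as was 1 of 10 mast cell, basophil and eosinophil markers, Gata2. With every library kept, 0 of 10 erythroid and 0 of 8 B cell markers were called. Without the 3 libraries high in neutrophil transcripts, 4 of 10 erythroid (median 0.995) and 2 of 8 B cell markers (median 0.991) were called higher and 0 lower. Monocyte and macrophage markers then had 1 of 12 called each way (median 0.62), and neutrophil markers 0 of 12 (median -1.04).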

How the data were processed

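Libraries were made from 5000 sorted cells each, per the labels' protocols, with a kit that is not described as keeping strand. The authors deposited counts of whole reads for each gene. Per the submitters' processing notes, STAR 2.7.0d and GRCm38 were used. The annotation remains not given in the sources used here, and 55450 of 55450 identifiers matched GENCODE. The column counted without regard to strand was used, since totals of both strand columns were nearly equal (ratio 0.989 to 0.999). Unmapped (3.35 to 5.06%), multimapping (9.93 to 13.4%), unassigned (3.37 to 5.13%) and ambiguous reads (4.20 to 4.79%) stayed out.

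Tests on the counts used edgeR 4.0.16 (R 4.3.3; TMM factors from 0.963 to 1.042; expression filter with a minimum count of 10; quasi-likelihood test; 4 group means over 14 libraries; 10 residual degrees of freedom). CPM and RPKM use TMM-scaled library sizes, and RPKM the union of a gene's exons. DESeq2 1.42.0 and limma 3.58.1 (voom), other scaling, no filter, single libraries left out, a replicate block, the 3 libraries high in neutrophil transcripts left out and, chosen after seeing the data, the sum of the strand counts were alternatives. The fit was tested on simulated data. Named genes are the members, from each pathway list up to 4 with the smallest p after against before transplantation and 2 with the highest RPKM, the 3 genes most correlated with each member, and the 2 most abundant markers of each cell type; some of these are not reported here. Members and lists were chosen with earlier results of these data known. Before transplantation, same-numbered libraries deviated together (r from 0.289 to 0.527 across genes) and the labels name 4 mice, so each number is read as 1 mouse; after it they did not (r from -0.051 to 0.025). Libraries of a group differed from each other by more than sampling noise.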

Additional observations from a re-analysis of the deposited data

Results flagged for a closer look

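Aldh2 in Selp high replicate 1 (1075 CPM) stood far from the other Selp high libraries, which had 858 to 894 CPM. The Selp low library of the same mouse, at 1276 CPM, was the highest of its group as well. Nupr1 in Selp high replicate 3 (249.2 CPM) stood far from the other Selp high libraries, which had 160.4 to 166 CPM, and the Selp low library of that mouse, at 217 CPM, was the highest of its group. Of 18 groups of 4 libraries tested, 2 held such a library; chance gives about 1 in 20.

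The counts by strand, which the comparisons did not use, held far more Mt2 reads than the counts without regard to strand, with 131 reads in the lowest library, Selp high-derived replicate 2, where the other column held 12.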

How the results depend on the processing

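The counts of genes called were the values that moved most. With DESeq2, 23 genes were called between Selp high-derived and Selp low-derived cells, 11 for Selp high against Selp low cells and 12 for the interaction, where edgeR called 0; without a filter on low counts 1 was called before transplantation. With the replicate block, 2 genes were called after transplantation and 0 before it or for the interaction; the block changed no call of a member. After transplantation the numbers pair nothing, and comparisons between stages were not run with the block, because numbers are nested within a stage. Leaving out single libraries gave 3688 to 5022 calls over both inputs, 1423 (without Selp high-derived replicate 3) to 2827 for the Selp high input, 803 (without Selp low-derived replicate 1) to 2723 for the Selp low input (1268 and 1184 without Selp low replicates 2 and 3), 0 to 2 before transplantation and 0 after it. With library sizes only, 2846 genes were called higher and 2045 lower over both inputs, against 2175 and 2456 in the fit as reported, so that 58.2% rather than 47.0% were higher; the shares were 58.4% against 50% for the Selp high and 57.8% against 43.6% for the Selp low input. The median of all genes moved by under 0.1.

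Of 1197 values of the members under alternative settings, 1129 kept direction and side of the threshold, 10 gained a call, 15 lost it (each of them Mt2 with the Selp low input) and 43 changed sign. No called value changed sign. Between Selp high-derived and Selp low-derived cells, values without the 3 libraries high in neutrophil transcripts were 0.017 for Gstm1, 0.055 for Sult1a1 and 0.155 for Nupr1, and with single libraries left out they ran from -0.284 to 0.016 for Gstm1, -0.325 to 0.09 for Gstm2, -0.316 to 0.117 for Sult1a1 and -0.172 to 0.154 for Nupr1. For Selp high against Selp low cells, Gstm5 was -0.089 without the 3 libraries and -0.004 with strand counts added, and Mt1 0.009 with library sizes only and 0.006 with only the groups compared. With single libraries left out, the ranges there were -0.227 to 0.079 for Gstm1, -0.06 to 0.179 for Gstm5, -0.101 to 0.066 for Mt1, -0.045 to 0.772 for Mt2 and -0.034 to 0.297 for Nupr1. For the Selp low input, Aldh2 was 0.011 with voom, 0.073 with library sizes only and 0.003 with strand counts added, and with single libraries left out it ran from -0.071 to 0.121, and Gstm5 from -0.223 to 0.066. For the interaction, Gstm1 was 0.122 and Nupr1 0.096 without the 3 libraries, and with single libraries left out Aldh2 ran from -0.022 to 0.182, Gstm1 from -0.241 to 0.078 and Nupr1 from -0.333 to 0.009. The causes were not tested. Over both inputs, Gstm2 was called in 1 of 21 settings (adjusted p from 0.0447 to 0.258).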

Other observations

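Neighbours of the members in the same clusters were measured too and are named for their place. In the chromosome 3 cluster, over both inputs, Gstm4 was at -0.27 ± 0.13 on the log2 scale (edgeR adjusted p = 0.136), Gstm6 at -0.44 ± 0.28 (adjusted p = 0.266) and Gstm7 at 0.16 ± 0.13 (adjusted p = 0.401) after against before transplantation, none of them called, while Gstm3 had 0 to 3 reads a library. In the chromosome 8 cluster Mt4 had 0 reads in every library. The antisense gene Gm45774 had 0 to 15 reads, with a change of -1.69 ± 0.82 (adjusted p = 0.146).

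The genes whose log2 CPM followed each member most closely over the 14 libraries, among 11349 protein-coding genes, are given as a description. The 2 stages carry much of each correlation, and those of Mt2 rest on the few reads counted without regard to strand. Sult1a1 went with Klrb1c (r = 0.987), Ldhd (0.985) and Ehd3 (0.981), Mt1 with Prtn3 (0.971), Ntf5 (0.966) and Gipc2 (0.961), Mt2 with Mospd1 (0.985), Wsb1 (0.957) and Gpx8 (0.947), and Nupr1 with Cd63 (0.973), Nxnl2 (0.964) and Sat1 (0.964), a polyamine acetyltransferase gene. Gstm1 went with Gimap5 (0.968), Eva1b (0.959) and Cyp4f13 (0.948), Gstm2 with Uchl1 (0.871), Stard3nl (0.87) and Emc6 (0.851), and Gstm5 with Cst3 (0.945), Nsa2 (0.945) and Myl6 (0.942). Aldh1a1 went with Tsc22d1 (0.904) and Praf2 (0.898), and Aldh2 with Pgls (0.928), Eef1d (0.922) and Akr1a1 (0.915), the aldehyde reductase gene.

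Among the members, Sult1a1 and Nupr1 had r = 0.929 over the 14 libraries and 0.393 once each group's mean was removed, and Mt1 and Mt2 had r = 0.925 and 0.586. Gstm2 and Mt1 had r = 0.618 and 0.758, and Aldh2 and Gstm5 0.407 and 0.692. Other pairs lost their r within groups: Mt1 and Nupr1 had 0.897 and 0.148, Sult1a1 and Mt1 0.88 and 0.13, and Sult1a1 and Mt2 0.81 and -0.02. Gstm1 and Mt2 changed sign, at 0.414 and -0.649. Every r of Mt2 here comes from the counts without regard to strand, which kept 3.96 to 12.1% of its reads. Selp high replicate 4 and Selp low replicate 4, both high in neutrophil transcripts, were the lowest of their groups in Gstm1 and the highest in Mt2. The part of counting and of these libraries in the r of Mt2 was not tested.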
